A study of Rattus norvegicus with 74 samples.

Results

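Glycolysis and glycogen metabolism were examined through 38 listed genes, matched by symbol in count tables of 30560 rat genes. Of the 38 symbols, 37 were matched. Aldoa carried 2 gene identifiers, so 38 gene entries were followed, and Pgk1 is not analysed here. The list holds 15 entries for enzymes of glycolysis, 5 genes that regulate the phosphofructokinase step, 6 for glycogen breakdown, 9 for glycogen synthesis and its control, and 3 glycerol phosphate dehydrogenases. Every entry passed the filter on low counts in each test except ENSRNOG00000052802, an Aldoa identifier that was not tested for training in isolated mitochondria.

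The rats were male, wild-type Wistar Kyoto animals, 9 weeks old at sampling, and all of them drank water with 8% deuterium oxide and were housed in pairs. Trained rats (ExT) ran on a treadmill 5 days a week for 4 weeks from the age of 5 weeks. Sessions began at 20 min and 15 m/min, and after the first week lasted 60 min at 20 m/min. Sedentary rats (Sed) stood on a belt that was not moving for as long. Tissue was collected 24 h after the last session. Whole muscle (SM) was the inner red gastrocnemius, a hindlimb muscle, and mitochondria (MT) were captured with an antibody from fresh tissue of the same muscle and treated with RNase-A and proteinase-K. The left ventricle wall (LV) was the heart sample. SM_Sed, SM_ExT, MT_Sed and MT_ExT had 15 libraries each from 30 rats, and LV_Sed and LV_ExT had 7 each from 14 of those rats.

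Glycolysis splits glucose into pyruvate in the cytosol, and muscle feeds it from blood glucose, through hexokinase, and from its own glycogen, through glycogen phosphorylase. Many of its steps are run by isoenzymes from separate genes, of which some are known as muscle forms (Pfkm, Pgam2, Eno3, Pygm) and others are used more widely (Pfkl, Pfkp, Pgam1, Eno1, Pygb, Pygl). Fast-twitch fibres rely on glycogen and glycolysis, whereas the heart, in health, oxidises mainly fatty acids.

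An SM library had 19477976 to 39401323 counts, an MT library 530397 to 9988027 and an LV library 54645657 to 75758777. All 7 heart marker genes tested were higher and all 7 skeletal muscle markers were lower in LV than in SM of the same rats. In MT, the skeletal muscle markers held 0.0985% to 0.343% of the counts of nuclear-encoded genes, against 12.2% to 19.9% in SM. Over 90% of counts came from the mitochondrial genome in 3 MT libraries, MT_ExT rats 2 and 27 and MT_Sed rat 15.

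The left ventricle was first compared with muscle of the same rats. Levels are given as CPM, the counts of a gene scaled to an equal library size with TMM factors. The factors were computed within each comparison, so a library's CPM differs from one comparison to the next. In Sed rats, 10 members were higher and 27 lower in LV (edgeR quasi-likelihood test, Benjamini-Hochberg adjusted p under 0.05, n = 7 each). The tissues differed in most genes: 78.7% of the 14367 genes tested were called, 40.0% as higher and 38.6% as lower in LV. The members' median log2 fold change was -1.20, against 0.04 over all genes. For 33 members the LV and SM values did not overlap, a separation that 56.1% of all genes showed. The kit and the RNA input differed with the tissue (100 ng and an Illumina Ribo-Zero kit for LV, 50 ng and a Zymo kit for SM), so tissue and library preparation cannot be told apart. In these bulk samples, fewer cells of a type and less RNA per cell cannot be told apart either. Of 20 tested markers of fat, vessel, immune, blood, connective and nerve cells, 8 were higher and 7 lower in LV, and their part in the members' values was not tested.

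Among glycolytic enzymes the muscle isoenzymes were lower and their wider-spread partners higher in LV. Eno3 (ENSRNOG00000004078), the muscle enolase, had 128, 152 and 184 CPM (lowest, median, highest) in LV_Sed and 2112, 2458 and 3481 CPM in SM_Sed. It was 17.5-fold lower in LV (log2 fold change -4.13, SE 0.133, edgeR adjusted p 6.3e-16). Its partner Eno1 moved the other way, from 51.0 to 80.2 CPM in SM to 94.3 to 112 CPM in LV, 1.77-fold higher (edgeR adjusted p 1.9e-08). Every LV library lay below every SM library for Eno3 and above every SM library for Eno1.

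Phosphoglycerate mutase showed the same exchange. Pgam2 (ENSRNOG00000013532), the muscle form, had 259, 311 and 359 CPM in LV_Sed against 888, 1064 and 1336 CPM in SM_Sed, 3.54-fold lower (log2 fold change -1.82, SE 0.103, edgeR adjusted p 3.7e-12). Pgam1 (ENSRNOG00000050585) had 98.0, 114 and 128 CPM in LV_Sed against 20.7, 23.1 and 26.6 CPM in SM_Sed, 4.94-fold higher (log2 fold change 2.30, SE 0.0711, edgeR adjusted p 3.2e-16). Of the phosphofructokinases, which catalyse the committed step, Pfkm was 4.72-fold lower, while Pfkp was 5.91-fold and Pfkl 2.55-fold higher in LV. Hk1, the hexokinase of many tissues that can bind mitochondria, had 92.3, 97.4 and 109 CPM in LV_Sed against 15.3, 16.6 and 19.7 CPM in SM_Sed, 5.67-fold higher (edgeR adjusted p 3.9e-17).

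Apart from hexokinase (Hk1), the glycolytic steps analysed without an alternative form in the list were all lower in LV. Gpi, which turns glucose phosphate into fructose phosphate, was 3.02-fold lower, the triose isomerase Tpi1 2.92-fold and the pyruvate kinase Pkm 2.78-fold. Gapdh, the dehydrogenase that yields the first NADH of the pathway, was 2.14-fold lower, at 1151 to 1410 CPM in LV_Sed and 2041 to 3184 CPM in SM_Sed. The groups did not overlap for any of these 4 genes.

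The values of aldolase are uncertain. ENSRNOG00000052802, the first Aldoa identifier, had 88.8, 101 and 115 CPM in LV_Sed and 1.49, 2.61 and 3.54 CPM in SM_Sed (log2 fold change 5.24, SE 0.141, edgeR adjusted p 2.2e-16). ENSRNOG00000067655, the second, had 1.18 to 2.01 CPM in LV_Sed and 0.637 to 2.10 CPM in SM_Sed, and the groups overlapped. Reads that match both copies may have been split or dropped in the authors' counting, and the LV and SM libraries came from different kits. Aldoc, the brain form, had 1.11 to 1.78 CPM in LV_Sed and 0.805 to 1.69 CPM in SM_Sed and was not called (log2 fold change 0.33, edgeR adjusted p 0.117).

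**Figure D1:**
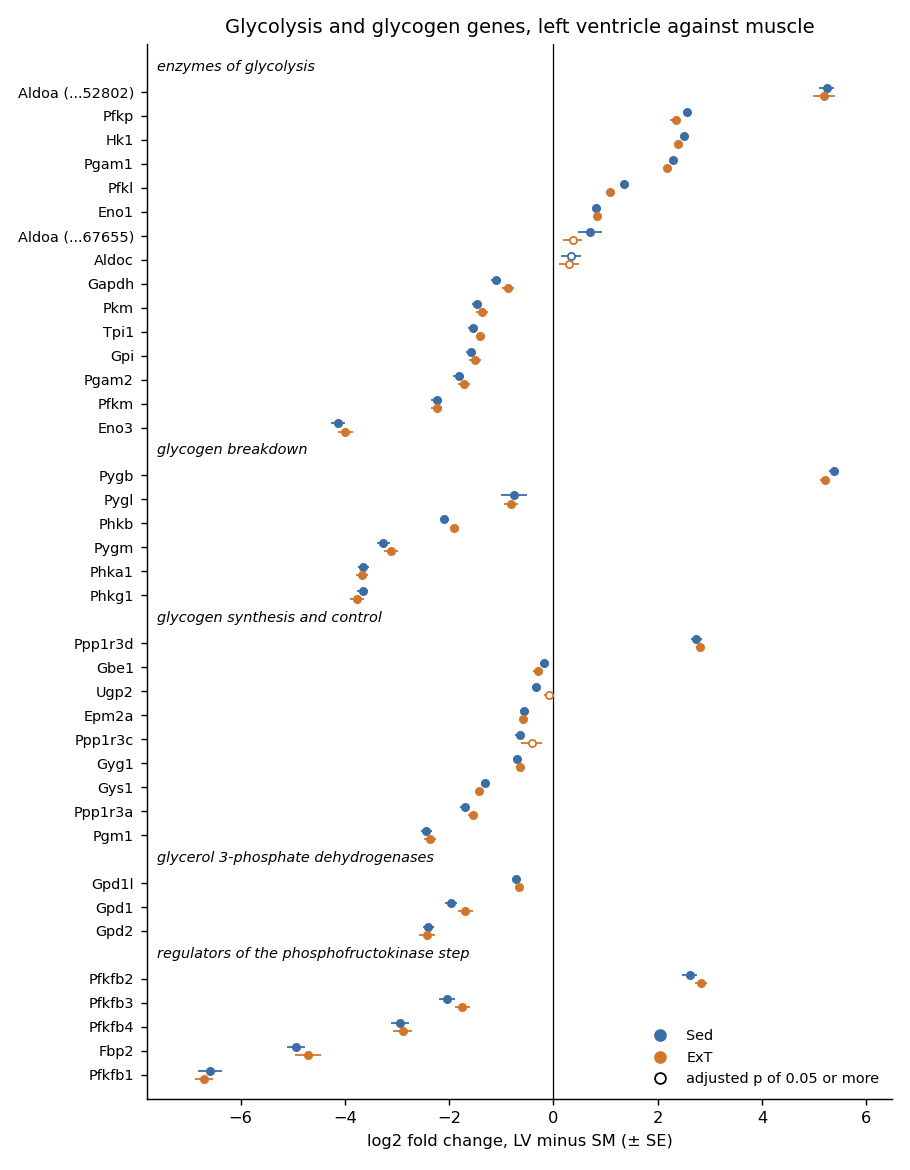
Each point is the log2 fold change of a gene between LV and SM, with its SE, in Sed (blue) and ExT (orange) rats, n = 7 libraries in each group. Open points did not pass an adjusted p of 0.05; Pygb stands farthest to the right at 5.38 and Pfkfb1 farthest to the left at -6.59 in Sed rats.

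Among the regulators of phosphofructokinase, Pfkfb1 and Pfkfb2 lay in opposite directions. The 4 Pfkfb genes encode enzymes that make and degrade the fructose bisphosphate that activates phosphofructokinase. Pfkfb1 (ENSRNOG00000000165), the form of liver and skeletal muscle, had 0.251, 0.404 and 0.988 CPM in LV_Sed against 40.3, 50.6 and 54.5 CPM in SM_Sed, 96.3-fold lower (log2 fold change -6.59, SE 0.23, edgeR adjusted p 3.4e-13). Pfkfb2 (ENSRNOG00000004162), known as the heart form, had 37.3, 50.0 and 63.8 CPM in LV_Sed against 6.04, 7.90 and 11.9 CPM in SM_Sed, 6.11-fold higher (log2 fold change 2.61, SE 0.148, edgeR adjusted p 4.2e-11). Neither pair of groups overlapped. Pfkfb3 was 4.11-fold and Pfkfb4 7.69-fold lower in LV. Fbp2 (ENSRNOG00000017637), the muscle fructose bisphosphatase, which runs against phosphofructokinase, had 0.406, 0.581 and 0.872 CPM in LV_Sed against 13.02, 20.03 and 23.9 CPM in SM_Sed, 30.8-fold lower (log2 fold change -4.94, SE 0.176, edgeR adjusted p 1.5e-14).

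In glycogen breakdown, the brain-type phosphorylase Pygb was the only gene of 6 that was higher in LV. Pygb (ENSRNOG00000007583) had 239, 265 and 281 CPM in LV_Sed against 5.31, 6.05 and 7.48 CPM in SM_Sed, 41.7-fold higher (log2 fold change 5.38, SE 0.0876, edgeR adjusted p 2.8e-20). The muscle form Pygm (ENSRNOG00000021090) had 375, 433 and 514 CPM in LV_Sed against 3472, 3868 and 5125 CPM in SM_Sed, 9.57-fold lower (log2 fold change -3.26, SE 0.118, edgeR adjusted p 3.6e-15). All 7 rats had more Pygb and less Pygm in LV than in their own muscle. Phosphorylase kinase, which switches phosphorylase on, was lower in each subunit measured: Phkg1 (ENSRNOG00000000920), the catalytic subunit of muscle, had 7.42, 8.37 and 10.5 CPM in LV_Sed against 85.7, 106 and 132 CPM in SM_Sed, 12.6-fold lower (log2 fold change -3.66, SE 0.11, edgeR adjusted p 3.8e-16). The regulatory subunits Phka1 and Phkb were 12.5-fold and 4.25-fold lower. The liver form Pygl was 1.70-fold lower, with overlapping groups.

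Glycogen synthesis and its control differed less. The synthase Gys1 was 2.48-fold lower in LV, the primer protein Gyg1 1.63-fold, Ugp2, which makes the UDP-glucose used by the synthase, 1.25-fold and the branching enzyme Gbe1 1.14-fold (log2 fold change -0.18, edgeR adjusted p 0.0415). With library totals as the only scaling, Gbe1 was at 0.05 (edgeR adjusted p 0.548). Pgm1, which links glucose phosphates to glycogen, was 5.43-fold lower. Of the subunits that bring a protein phosphatase to glycogen, the muscle form Ppp1r3a was 3.26-fold and Ppp1r3c 1.56-fold lower. Ppp1r3d (ENSRNOG00000053869) was the exception, with 36.8, 40.4 and 48.4 CPM in LV_Sed against 5.04, 5.85 and 7.79 CPM in SM_Sed, 6.68-fold higher (log2 fold change 2.74, SE 0.1, edgeR adjusted p 4.3e-15). Epm2a, which encodes laforin, a glycogen phosphatase, was 1.47-fold lower. Some of these differences depended on the scale. As mean CPM of nuclear-encoded counts, untested, Ugp2 was higher in LV_Sed (345.5, n = 7) than in SM_Sed (288.5, n = 15). Gbe1 was also higher on that scale (118.8 against 83.13), and Epm2a was nearly level (33.12 against 32.39). Gys1, Gyg1, Pgm1, Ppp1r3a and Ppp1r3c stayed lower in LV_Sed, with Gyg1 at 144.7 against 155.2.

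The glycerol phosphate dehydrogenases, which move reducing equivalents from glycolysis towards mitochondria, were all lower in LV. Gpd1 was 3.91-fold lower, the mitochondrial Gpd2 5.27-fold and Gpd1l 1.63-fold, and in each case the LV libraries lay below the SM libraries. As mean CPM of nuclear-encoded counts, untested, Gpd1l was nearly level, at 73.46 in LV_Sed and 75.83 in SM_Sed. Gpd1 (209.8 against 626.4) and Gpd2 (27.75 against 106.7) stayed lower in LV_Sed on that scale.

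In ExT rats, with other animals in both groups, 9 members were higher and 25 lower in LV, where 79.3% of 14338 genes were called, 39.7% as higher and 39.5% as lower. Non-overlap was again found for 33 members, and for 57.0% of all genes. The calls of the arms pointed the same way for 34 members (9 up and 25 down in LV) and opposite ways for 0. Such agreement was not counted over all genes, most of which were called in each arm. The log2 fold change in ExT was 5.20 for Pygb, 5.19 for Aldoa ENSRNOG00000052802, 2.83 for Pfkfb2 and 2.81 for Ppp1r3d. It was -6.70 for Pfkfb1, -4.71 for Fbp2, -3.99 for Eno3 and -3.77 for Phkg1. Ugp2 (-0.09), Ppp1r3c (-0.42), Aldoa ENSRNOG00000067655 (0.37) and Aldoc (0.30) did not pass in ExT. With library totals as the only scaling, the median of all genes moved to 0.28 in Sed and 0.21 in ExT, and the share of calls that were higher in LV went from 50.9% to 62.7% in Sed and from 50.1% to 60.0% in ExT. No member called in ExT changed sign under that scaling. Eno3, Phkg1, Phka1, Pfkm, Tpi1, Pfkfb1 and Pfkfb2 each overlap another protein-coding gene in RefSeq, and their counts are uncertain to that extent.

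The rest of the pathway was read from 27 other glycolysis and glycogen genes. Of these, 20 were tested in Sed, where 6 were higher and 11 lower in LV, and 21 in ExT, where 7 were higher and 11 lower. Stbd1, a protein that anchors glycogen to membranes, had a log2 fold change of -4.0 (SE 0.128) and the insulin-responsive hexokinase Hk2 -1.84 (SE 0.0996) in Sed. Ppp1r3b, another glycogen-targeting subunit of the phosphatase, was at 1.43 (SE 0.128). The edgeR adjusted p of these 3 genes was 4.8e-09 or lower.

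The promoters of the phosphorylase and mutase pairs are shown as examples of isoenzymes that lay in opposite directions between the tissues. Each sequence holds 250 bases before and 50 after the RefSeq start, from assembly GRCr8 (the counts were made on mRatBN7.2), 5′ to 3′ on the gene's strand. Capitals mark the E-box CANNTG, the letters bound by the muscle regulatory factors of the MyoD family among others, and the TATA motif TATAAA, searched on both strands.
Pygm, GRCr8 chr1:213119555-213119854, plus strand: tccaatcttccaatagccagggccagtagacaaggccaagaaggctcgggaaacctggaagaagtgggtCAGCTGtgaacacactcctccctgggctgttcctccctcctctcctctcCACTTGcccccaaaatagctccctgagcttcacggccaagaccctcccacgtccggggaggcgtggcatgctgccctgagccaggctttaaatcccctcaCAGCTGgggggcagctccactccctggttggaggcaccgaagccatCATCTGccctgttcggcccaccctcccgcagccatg
Pygb, GRCr8 chr3:160071891-160072190, plus strand: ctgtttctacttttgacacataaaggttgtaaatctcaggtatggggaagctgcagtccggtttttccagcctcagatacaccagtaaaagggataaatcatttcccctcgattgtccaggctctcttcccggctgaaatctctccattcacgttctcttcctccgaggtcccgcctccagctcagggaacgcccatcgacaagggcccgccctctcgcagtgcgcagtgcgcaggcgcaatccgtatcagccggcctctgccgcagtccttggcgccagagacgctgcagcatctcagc
Pgam2, GRCr8 chr14:84897825-84898124, minus strand: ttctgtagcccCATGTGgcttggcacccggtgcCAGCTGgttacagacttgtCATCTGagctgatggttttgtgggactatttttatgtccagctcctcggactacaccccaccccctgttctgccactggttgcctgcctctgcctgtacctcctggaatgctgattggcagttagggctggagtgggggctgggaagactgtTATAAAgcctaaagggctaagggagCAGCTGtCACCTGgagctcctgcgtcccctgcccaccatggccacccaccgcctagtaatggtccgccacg
Pgam1, GRCr8 chr1:250672902-250673201, plus strand: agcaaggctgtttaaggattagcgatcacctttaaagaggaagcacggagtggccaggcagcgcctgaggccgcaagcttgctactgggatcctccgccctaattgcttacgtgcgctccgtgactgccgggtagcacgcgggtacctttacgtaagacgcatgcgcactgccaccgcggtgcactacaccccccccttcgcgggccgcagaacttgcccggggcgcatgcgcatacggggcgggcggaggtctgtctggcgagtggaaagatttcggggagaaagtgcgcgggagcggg

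Pygm held 4 and Pgam2 5 copies of CANNTG, and Pgam2 also 1 TATAAA, which overlapped no E-box. Neither motif was present in the windows of Pygb and Pgam1. Other such sets did not share this contrast: CANNTG occurred 0 times in Pfkm, 1 time in Pfkp and 2 times in Pfkl, 2 times in Eno3 and 3 and 0 times in the 2 entries of Eno1, and 3 times each in Pfkfb1 and Pfkfb2. CANNTG was found in 72.1% of 33469 promoters of the same length and in 25 of 39 promoter entries of 34 members, and TATAAA in 14.2% of all and in 5 of the 39. Pygm had 8 and Pgam2 6 CpG dinucleotides, against 18 in Pygb and 30 in Pgam1. The median was 7 over all promoters and 19 over those of the members.

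The balance of isoenzymes within each enzyme was then given as a share of its counts per library, with no correction for transcript length. In SM_Sed, Pygm held a median of 99.8% (lowest 99.6%, highest 99.9%, n = 15) of phosphorylase counts and Pygb 0.143%. In LV_Sed, Pygm held 62.1% (59.8% to 64.5%, n = 7) and Pygb 37.7% (35.3% to 40.0%). The shares of one tissue varied little between rats, and those of the tissues lay far apart.

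Enolase and phosphoglycerate mutase were also nearly all of the muscle form in muscle and mixed in the heart. Eno3 took a median of 97.8% of enolase counts in SM_Sed and 58.0% in LV_Sed, and Pgam2 98.2% and 72.5% of mutase counts. Phosphofructokinase shifted less: Pfkm kept 89.0% in LV_Sed against 99.5% in SM_Sed, with Pfkp at 7.91% and Pfkl at 3.16% in LV_Sed. Among the Pfkfb genes, Pfkfb1 (46.1%) and Pfkfb3 (39.7%) made up most of the counts in SM_Sed and Pfkfb2 (81.2%) in LV_Sed. Pfkfb3 was also the gene with the largest spread in SM_Sed (coefficient of variation 56.7%), and its share ran from 19.9% to 66.1% there. Ppp1r3d took 15.2% of the 3 phosphatase-targeting genes in LV_Sed and 1.13% in SM_Sed.

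**Figure D2:**
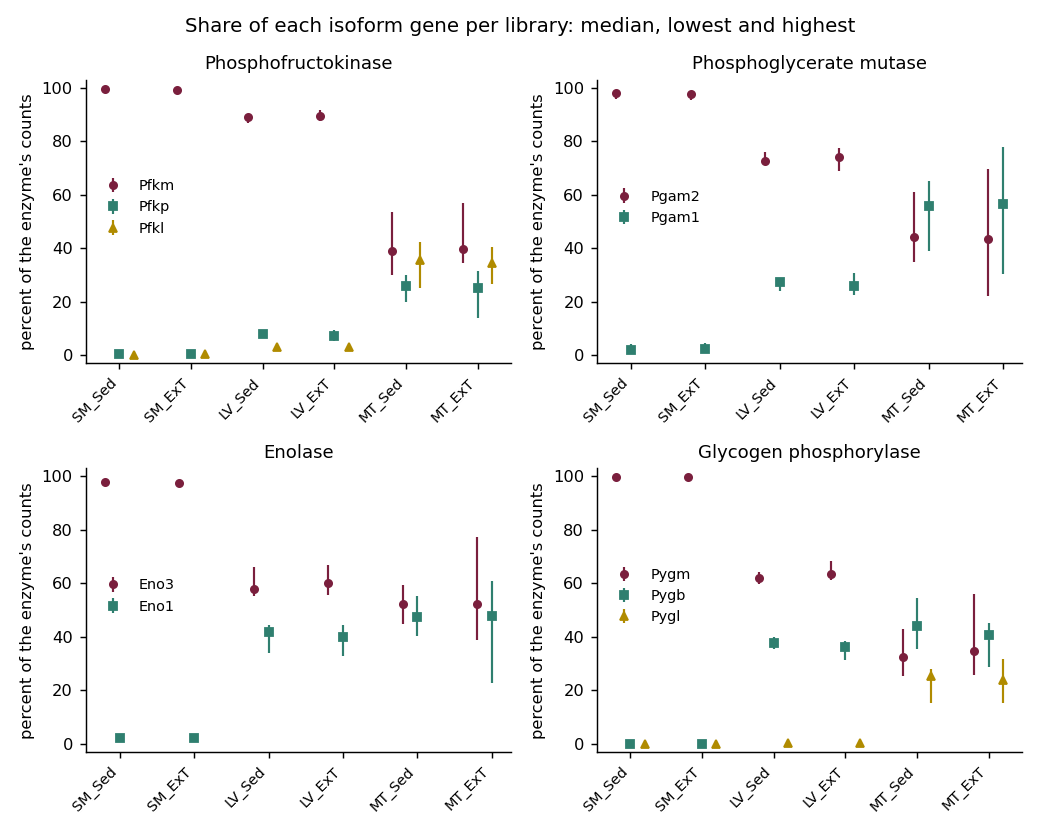
The percent of each enzyme's counts that falls on each isoform gene is plotted for the 6 groups, as the median (marker) with the lowest and highest library (bars), n = 15 for SM and MT and 7 for LV. Pygm falls from a median of 99.8% in SM_Sed to 62.1% in LV_Sed and 32.7% in MT_Sed, while the ExT groups sit beside the Sed groups.

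Isolated mitochondria were next compared with whole muscle. In Sed rats, 9 members were higher and 29 lower in MT (edgeR, n = 15 each). Nearly every gene differed: 94.8% of 22842 genes were called, 61.7% as higher and 33.1% as lower in MT. The members' median log2 fold change was -3.38 against 1.81 over all genes. For 32 members the groups did not overlap, as for 75.5% of all genes. In ExT, 9 were again higher and 29 lower, with 94.3% of 21312 genes called, 59.3% as higher and 35.0% as lower, and with medians of -3.28 and 1.31. There 29 members and 74.1% of all genes did not overlap. The direction was the same in both arms for all 38 entries, which was not counted over all genes. The input was 10 ng of RNA for MT and 50 ng for SM, so the fraction and its preparation cannot be told apart.

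The most negative values in MT were those of Pgam2, Pygm, Eno3 and Gapdh. Pgam2 had 2.38, 5.13 and 12.0 CPM in MT_Sed against 1215, 1882 and 2536 CPM in SM_Sed (log2 fold change -8.37, SE 0.166, edgeR adjusted p 6.5e-40). Pygm had 13.3, 20.9 and 32.6 CPM against 4352, 7225 and 9929 CPM (-8.36, SE 0.165, edgeR adjusted p 6.1e-40). Eno3 was at -8.16 and Gapdh at -8.01. The values in ExT were -8.02 for Pgam2, -8.13 for Pygm, -7.88 for Eno3 and -7.76 for Gapdh. All 9 genes of glycogen synthesis and control and all 3 glycerol phosphate dehydrogenases were lower in MT, among them Gpd2, whose protein sits in the mitochondrial inner membrane (-2.81, SE 0.132). For Ppp1r3d (-0.61) this rests on the scaling: with library totals only it was at 1.04 in Sed (edgeR adjusted p 0.000248) and 1.03 in ExT (0.00454), and its mean level was 25.69 CPM of nuclear-encoded counts in MT_Sed and 8.928 in SM_Sed.

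The 9 members that were higher in MT had no more than 39.2 CPM in any SM_Sed library. Pfkl, the liver phosphofructokinase, had 16.4, 25.3 and 32.5 CPM in MT_Sed against 4.69, 6.87 and 8.97 CPM in SM_Sed (log2 fold change 1.80, SE 0.0977, edgeR adjusted p 2.1e-22). Pygl had 10.1, 15.5 and 18.5 CPM against 3.01, 4.92 and 6.996 CPM (1.58, SE 0.118, edgeR adjusted p 2.6e-17). Aldoc had 6.15, 9.00 and 13.7 CPM against 0.738, 1.497 and 3.42 CPM (2.38, SE 0.167, edgeR adjusted p 2.7e-18). Every MT library lay above every SM library for these 3 genes. Aldoa ENSRNOG00000067655 (1.83), Pygb (1.38), Pfkp (1.06), Pfkfb4 (0.81), Pfkfb2 (0.56) and Hk1 (0.42) were the others. Hk1, whose protein binds the outer mitochondrial membrane, had 26.5, 36.4 and 46.1 CPM in MT_Sed against 22.8, 26.7 and 39.2 CPM in SM_Sed, and the groups overlapped. All 9 of these exceeded 0 in both arms. Aldoc and Aldoa ENSRNOG00000067655 alone exceeded the median of all genes in Sed.

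Within MT the members' counts lay closer to each other than in SM. As CPM of nuclear-encoded counts, with no correction for transcript length and leaving out Aldoa, the group means of 36 members spanned 4090-fold in SM_Sed, from 1.497 for Aldoc to 6123 for Pygm, and 2530-fold in LV_Sed. In MT_Sed they spanned 6.54-fold, from 21.6 for Pgam2 to 141 for Hk1, and in MT_ExT 5.68-fold. Across these 36 genes, Spearman's rho between group means was 0.105 for SM_Sed and MT_Sed and 0.746 for SM_Sed and LV_Sed, as a description over genes that share libraries. Together the members held 1.98% to 3.35% of nuclear-encoded counts in SM_Sed, 1.01% to 1.13% in LV_Sed and 0.195% to 0.231% in MT_Sed.

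Genes that muscle hardly expresses also had counts in MT. The 1262 odorant and vomeronasal receptor genes had a median level of 9.44 CPM of nuclear-encoded counts in MT_Sed and 0 in SM_Sed. Heart markers, which have little signal in muscle, were higher in MT for 6 of 7 genes, with a median log2 fold change of 4.16. Their part in the members' values was not tested. Of 23 markers of fat, vessel, immune, blood, connective and nerve cells, 5 were higher and 11 lower in MT in Sed, and 6 and 12 in ExT, and their part was not tested either. Scaling moved the median of all genes to 3.43 in Sed and 2.92 in ExT with library totals only, and the share of calls that were higher in MT rose from 65.1% to 86.2% in Sed and from 62.9% to 86.5% in ExT. Beside Ppp1r3d, Pfkfb3 in ExT went from -1.21 to 0.39 under that scaling (edgeR adjusted p 0.222), and to 0.80 (0.000171) with every library thinned to the smallest total. As mean CPM of nuclear-encoded counts, untested, Pfkfb3 was higher in MT in Sed also, at 85.16 in MT_Sed and 63.78 in SM_Sed.

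**Figure D3:**
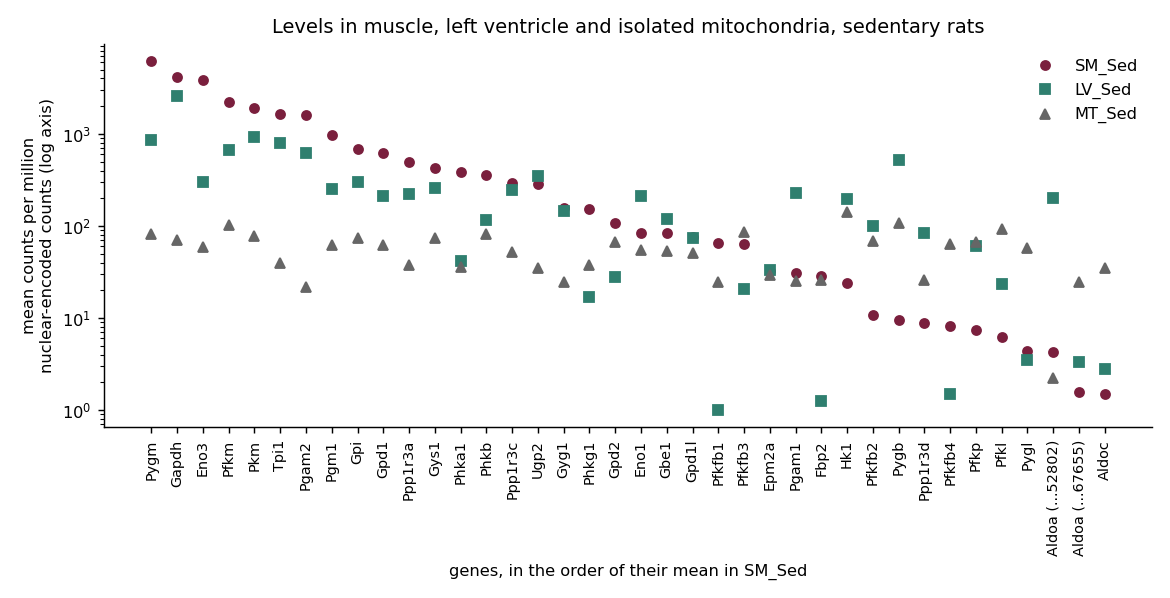
Group means of each member in CPM of nuclear-encoded counts (log axis) for SM_Sed, LV_Sed and MT_Sed, with the genes in the order of their SM_Sed mean. The SM_Sed points fall from 6123 to 1.497, while those of MT_Sed, apart from the 2 Aldoa identifiers, stay between 21.6 and 141 across the axis.

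Other pathway genes in MT lay on both sides. Of 27 tested in each arm, 13 were higher and 10 lower. In Sed the log2 fold change was -3.42 (SE 0.14) for Stbd1 (edgeR adjusted p 4.1e-23). Hk3, a hexokinase of leukocytes, had a mean of 22.3 CPM in MT_Sed and 0.0995 CPM in SM_Sed, and the liver glycogen synthase Gys2 13.3 and 0.1002 CPM.

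With training, 1 member rose in whole muscle. Pfkl had 4.31, 5.50 and 6.47 CPM in SM_ExT against 2.85, 4.29 and 5.48 CPM in SM_Sed (log2 fold change 0.35, SE 0.0761, edgeR adjusted p 0.0354, n = 15 each). The groups overlapped, and 0.206% of 13570 genes were called, 0.184% as higher and 0.0221% as lower in ExT. The members' median log2 fold change was -0.09 against -0.01 over all genes, and 9 members and 13.7% of all genes had an unadjusted p under 0.05. Pfkl lost the call with library totals only (0.35, edgeR adjusted p 0.0723) and with a fibre-type score per library as a covariate (0.32, 0.107), and DESeq2 called Gys1 beside it.

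The members next in order did not pass. Gys1, the glycogen synthase of muscle, had 295, 345 and 390 CPM in SM_ExT against 240, 298 and 344 CPM in SM_Sed (log2 fold change 0.20, edgeR adjusted p 0.0974). Pgam1 was at 0.31 (0.173), Hk1 at 0.22 (0.175) and Phkb at -0.29 (0.175). Markers of other cell types were not called either, at 0 of 20 tested by edgeR, and 0 of 19 other pathway genes were.

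The members called depended on the range of rat numbers. What the numbers stand for is not given in the sources used here. In rats 2 to 16, with 7 libraries in each arm, 5 members were called, where 2.95% of all genes were (2.16% higher and 0.790% lower in ExT). Pfkl (log2 fold change 0.54), Pgam1 (0.65), Gpd1l (0.29) and Hk1 (0.27) rose and Phkb fell by 0.51 on the log2 scale (edgeR adjusted p 0.0179 to 0.0442). Called or not, 28 members lay below 0 and 10 above, with a median log2 fold change of -0.22 against -0.0 over all genes. An unadjusted p under 0.05 was reached by 27 members and 23.2% of all genes with edgeR. Pfkl had 4.88, 5.50 and 6.47 CPM in ExT and 2.85, 3.88 and 4.81 CPM in Sed rats of that range, without overlap. Pgam1 had 22.6, 27.1 and 40.1 CPM against 13.6, 19.6 and 21.9 CPM, also without overlap. A fast minus slow fibre score, in log2 units, averaged 4.29 ± 1.14 in Sed and 2.98 ± 0.52 in ExT rats of this range (SD, n = 7 each). With that score as a covariate over all SM libraries, the log2 fold change was 0.32 for Pfkl, 0.23 for Pgam1, 0.10 for Gpd1l, 0.20 for Hk1 and -0.13 for Phkb (edgeR adjusted p 0.107 to 0.604). Its part within the range was not tested.

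In rats 17 to 32, with 8 libraries in each arm, 0 members were called by edgeR, where 0.00732% of all genes were. Pfkl was at 0.20 (edgeR adjusted p 0.820) and Pgam1 at 0.03. The difference between the ranges itself, tested as an interaction of arm and range, was called for 0 members and 0% of genes by edgeR, with 18 members and 13.3% of all genes at an unadjusted p under 0.05. It was 0.33 for Pfkl (edgeR adjusted p 0.299) and 0.61 for Pgam1 (0.187).

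**Figure D4:**
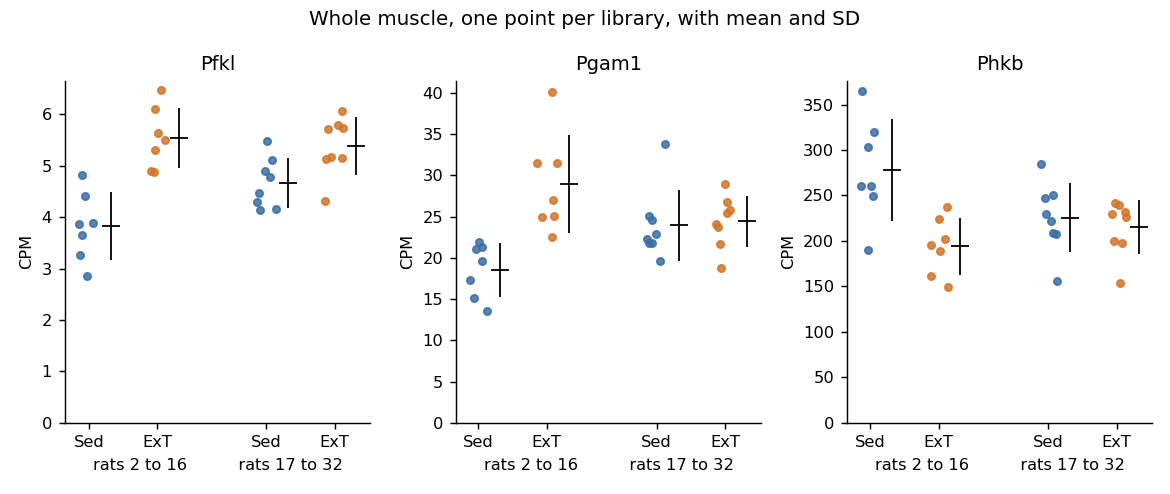
CPM of Pfkl, Pgam1 and Phkb in each whole-muscle library, by arm and range of rat numbers, with the mean and SD as black bars. In rats 2 to 16 all ExT points of Pfkl (4.88 to 6.47 CPM) and Pgam1 (22.6 to 40.1 CPM) lie above all Sed points, and in rats 17 to 32 the arms overlap for the 3 genes.

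In MT, 0 of 37 members were called between ExT and Sed by edgeR or DESeq2, and 0% of 19281 genes were. By edgeR 5 members and 4.73% of all genes had an unadjusted p under 0.05. Pygb had 30.2, 38.6 and 42.9 CPM in MT_ExT against 33.4, 45.4 and 55.3 CPM in MT_Sed, a log2 fold change of -0.25 (SE 0.0803). Gyg1 was at 0.35 (SE 0.146), Pgam1 at 0.34 (SE 0.147) and Pkm at 0.19 (SE 0.0878), and the arms overlapped for all 4. Their edgeR adjusted p was 1.0.

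In LV, 0 of 38 members were called by edgeR or DESeq2, and 0% of 14488 genes were. Unadjusted p under 0.05 was reached by 5 members and 5.90% of all genes with edgeR, and by 9 members and 4.94% with DESeq2. The fold changes were small and mostly positive, with 32 members above 0, 6 below and a median of 0.08, against 0.00 over all genes. Without LV_ExT rat 25 the members' median was 0.05. Gpd1l had 38.7, 45.8 and 50.1 CPM in LV_ExT against 36.5, 38.7 and 44.4 CPM in LV_Sed (log2 fold change 0.17, SE 0.0656, edgeR adjusted p 0.804). Pfkfb3 was at 0.25, Gpd1 at 0.23 and Ppp1r3d at 0.16, each with the same adjusted p and with overlapping arms.

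Whether training acted differently in the sample types was tested as an interaction. Between MT and SM, 0 members passed by edgeR or DESeq2, where 0.0181% of 27684 genes were called (0.00361% higher and 0.0144% lower in MT), and 11 members and 8.50% of all genes had an unadjusted p under 0.05 with edgeR. The smallest p belonged to Pfkl, with a difference in log2 fold change of -0.49 (MT minus SM, SE 0.125, edgeR adjusted p 0.168). Phkb was at 0.45 (SE 0.135, edgeR adjusted p 0.283), Pygb at -0.33 (SE 0.11, 0.352) and Hk1 at -0.30 (SE 0.101, 0.365). Between LV and SM of the same rats, 0 members passed by edgeR or DESeq2, 0% of 15049 genes were called and 1 member, Pfkl, had an unadjusted p under 0.05 with edgeR (-0.25, SE 0.108), as had 4.57% of all genes. Ugp2 (0.25), Phkb (0.20) and Gapdh (0.25) came next, all at an edgeR adjusted p of 1.0. In each arm, 6 LV libraries came from rats 17 to 32 and 1 from rats 2 to 16. In SM of rats 17 to 32, training was called for 0 members and 0.00732% of genes by edgeR. The LV interaction thus had little called training effect in muscle to compare with, and does not show that heart and muscle respond alike.

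The levels of 22 members in muscle went with a score of fibre-type genes. A score was taken for each of the 30 SM libraries as the mean log2 CPM of 9 fast-fibre contractile genes minus that of 10 slow-fibre genes, an analysis added after seeing the data. It ran from 2.29 to 5.44 in SM_Sed (3.88 ± 1.07, SD, n = 15) and from 2.20 to 5.07 in SM_ExT (3.32 ± 0.79, SD, n = 15). The ExT mean was the lower one in rats 2 to 16 (2.98 against 4.29). Sed rats 17 to 32 averaged 3.53 ± 0.94 and ExT rats 3.61 ± 0.89 (SD, n = 8 each). With arm as a covariate, 19 members had a positive and 3 a negative slope on the score (edgeR adjusted p under 0.05), where 18.9% of all genes were called, 8.94% with a positive and 9.98% with a negative slope. The members' median slope was 0.14 log2 units per unit of score, against 0.00 over all genes. Score and gene levels come from the same libraries. Of the 9 fast genes in the score, Myh2 had a negative slope on it (-0.38, edgeR adjusted p 1.6e-05) and Tnnc2 was not called (0.13, 0.168). Of 20 markers of other cell types 0 had a positive and 2 a negative slope.

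Positive slopes were called in every functional group. They were those of 7 of 15 glycolysis entries, among them Pkm (0.25), Pgam2 (0.25), Eno3 (0.23), Gpi (0.23), Pfkm (0.18) and Tpi1 (0.16). In glycogen breakdown Phka1 (0.30), Phkg1 (0.29), Pygm (0.26) and Phkb (0.24) were called. Both cytosolic Gpd1 (0.36, SE 0.0373, edgeR adjusted p 3.6e-09) and mitochondrial Gpd2 (0.36, SE 0.0349, 8.1e-10) were among the steepest, with Fbp2 (0.41, SE 0.0716, 8.4e-05) and Pfkfb3 (0.43, SE 0.101, 0.00275). Pgm1 was at 0.27. The negative slopes were those of the branching enzyme Gbe1 (-0.37, SE 0.0266, edgeR adjusted p 7.9e-13), Pgam1 (-0.14, SE 0.0481, 0.0431) and Gpd1l (-0.13, SE 0.0273, 0.00072). Hk1 (-0.03), Pfkl (-0.05), Gys1 (-0.06) and Pfkfb1 (0.01) did not pass.

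**Figure D5:**
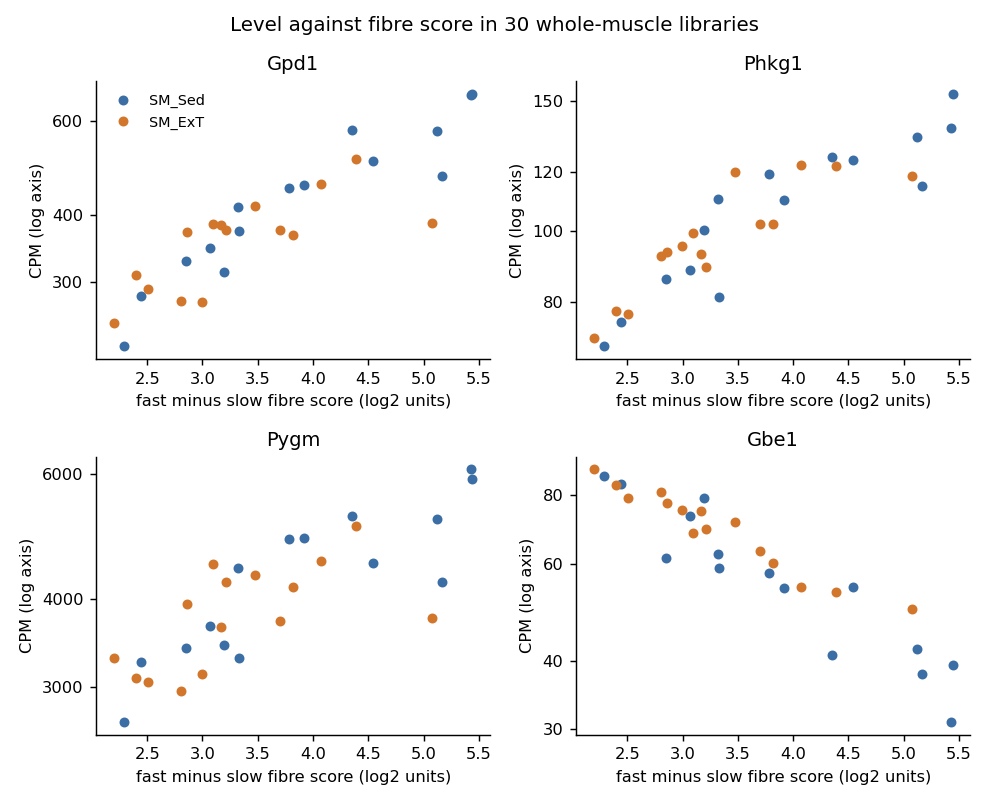
CPM (log axis) of Gpd1, Phkg1, Pygm and Gbe1 in 30 whole-muscle libraries against the fast minus slow fibre score in log2 units, SM_Sed in blue and SM_ExT in orange. The first 3 genes climb with the score (slopes of 0.36, 0.29 and 0.26) and Gbe1 declines (-0.37) in libraries of both arms.

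The slopes were called for 21 members in SM_Sed alone, where 11.8% of all genes were, for 17 in rats 2 to 16 (7.58% of all genes) and for 14 in rats 17 to 32 (4.66%). Gbe1 was called in each of these subsets. Gpd1l was called in SM_Sed alone (edgeR adjusted p 0.00434) but not in rats 2 to 16 (0.0896) or rats 17 to 32 (0.0512). Pgam1 was called in none of them, with a slope of -0.14 (0.140), -0.16 (0.187) and -0.03 (0.858). Among positive slopes, Pfkfb3 (edgeR adjusted p 0.176 and 0.252), Ppp1r3a (0.262 and 0.636) and Ppp1r3c (0.245 and 0.389) were called in neither range. Fbp2 was not called in rats 2 to 16 (0.1). Tpi1 (0.119), Pfkfb4 (0.247) and Aldoa ENSRNOG00000052802 (0.717) were not called in rats 17 to 32. Of 19 other pathway genes 6 had a positive slope, among them Stbd1 (0.34, SE 0.0315) and the glucose phosphate transporter Slc37a4 (0.27, SE 0.0345), and 2 a negative one, Phkg2 (-0.15, SE 0.0367) and Gaa (-0.12, SE 0.0326). The members' combined share of nuclear-encoded counts was 2.95% ± 0.389 in Sed and 2.54% ± 0.162 in ExT rats of the range 2 to 16 (SD, n = 7 each), and 2.47% ± 0.318 and 2.56% ± 0.270 in rats 17 to 32 (SD, n = 8 each). The shares were ordered between arms as the fibre score was in each range, and in rats 17 to 32 both differences were within 1 SD.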

How the data were processed

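The authors deposited whole-number counts per gene, 1 table each for SM, MT and LV, and these were used as deposited. FastQC 0.74, cutadapt 4.6, STAR 2.7.11a, HTSeq and the build mRatBN7.2 are named in the submitters' processing notes. The annotation release and the strand setting are not given in the sources used here, so members that overlap another gene are uncertain. In RefSeq this holds for 8 of 36 matched members (Pfkm, Tpi1, Eno3, Phkg1, Phka1, Pfkfb1, Pfkfb2 and Aldoa). Promoters came from RefSeq GRCr8. No columns belonged to other samples (0). Groups and rat numbers came from the library titles.

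Tests used edgeR 4.0.16 in R 4.3.3 (TMM, filterByExpr, robust quasi-likelihood F test, Benjamini-Hochberg over all genes tested, threshold 0.05), each on the libraries of its own groups, and were tested on simulated data. LV was compared with SM libraries of the same rats. CPM and shares were computed with numpy 2.4.6 and pandas 2.3.3. DESeq2 1.42.0, RLE scaling, library totals only, no filter, nuclear-encoded genes only, rat ranges, thinning and the rat number as a block were alternatives. A count of 3 was taken as the floor, per library total before TMM scaling, 0.300 to 5.66 CPM in MT, 0.0761 to 0.154 in SM and 0.0396 to 0.0549 in LV. Floors cover counting error only.

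Libraries of 1 rat share an animal. Their deviations from the group means had a median correlation of 0.014 (Sed) and 0.019 (ExT) between MT and SM over 15 pairs, and of 0.064 and -0.067 between LV and SM over 7 pairs. No pair of libraries in a group agreed within sampling noise (smallest chi-square per degree of freedom 1.23). Members named with values per group were called, had a mean of at least 5 CPM in either group and were among the 4 with the largest change in each direction, beside their isoenzymes. Where none was called, the 4 with the smallest p were named. Other genes are named for their role. Of the other pathway genes, up to 4 called by largest change were named, with others chosen after their values were seen, and some are not reported here. The members, lists and rules were chosen with earlier results of these data known.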

Additional observations from a re-analysis of the deposited data

Results flagged for a closer look

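For each member, the 7 libraries of LV_Sed and of LV_ExT were examined for 1 library far from the rest, 76 groups in all. In 2 of them the gap between the outermost library and its neighbour exceeded the critical share of the range (0.568). Chance marks about 1 in 20 groups. Pygl, the liver glycogen phosphorylase, was highest in LV_Sed rat 20, at 4.09 CPM, with the other 6 libraries between 1.35 and 1.86 CPM. Without that library, an alternative added after seeing the data, Pygl went from a log2 fold change of -0.76 to -1.07 between LV and SM in Sed rats (edgeR adjusted p 0.00923 and 1.75e-05), and from -0.24 to 0.07 between ExT and Sed in LV, where it passed neither time (edgeR adjusted p 0.881 and 0.99). Eno1 was highest in LV_ExT rat 25, at 136 CPM, with the others between 111 and 121 CPM. Without that library it went from 0.84 to 0.80 between LV and SM in ExT rats and from 0.05 to 0.02 between ExT and Sed in LV.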

How the results depend on the processing

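Among the tests of training, the count of members called moved most in SM. Against 1 member called, library totals gave 0, DESeq2 gave 2, rats 2 to 16 gave 5, rats 17 to 32 gave 0 and the fibre score as a covariate gave 0. In LV, rats 17 to 32 alone also gave 0 called. There 15 members and 11.8% of all genes had an unadjusted p under 0.05 with edgeR, against 5 and 5.90% over all LV libraries. With the rat number as a replicate block, the members called were 38 in both arms for MT against SM, 37 (Sed) and 34 (ExT) for LV against SM, and 0 for both interactions, so the pairing changed no count of members. Over all genes, the block gave 21628 calls of 22842 (Sed) and 20069 of 21312 (ExT) for MT against SM. For LV against SM it gave 11174 of 14367 (Sed) and 11224 of 14338 (ExT). The interactions gave 3 of 27684 genes for MT and 0 of 15049 for LV. Thinning MT and SM to the smallest total left 30 members tested and 29 called in Sed, 3 higher and 26 lower in MT, where 6152 of 7208 genes were called. In ExT thinning left 27 tested and 25 called, 2 higher and 23 lower, where 4124 of 4974 genes were called. Without thinning, 9 were higher and 29 lower in each arm. The fibre score slopes numbered 14 in rats 17 to 32, where 636 genes in all were called, against 22 and 2567 over all SM libraries; the cause was not tested. Of 425 recomputed values of the members picked by the naming rule, 422 kept their direction and side of the threshold and 0 reversed. The 3 that lost the call were all Pfkl in SM: library totals, rats 17 to 32 and the fibre score. A member that the filter of a setting left out gave no value there, and thinning left out the most. For training in MT and LV and for the interactions between sample types, 0 members were called in any setting. Their values among the 425 thus stayed uncalled throughout and say nothing on how firm a call is. Outside the members picked by the naming rule, the recomputed settings turned the sign of Ppp1r3d (both arms) and Pfkfb3 (ExT) in MT against SM. They also turned that of Gbe1 in LV against SM in Sed (-0.18 to 0.05).

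Without the 3 MT libraries with over 90% mitochondrial counts, added after seeing the data, 38 members were called in Sed and 37 in ExT for MT against SM. Over all genes, 23703 of 24949 were called there in Sed and 22068 of 23339 in ExT. The shallow MT libraries limit the precision of each member there, and in LV 7 rats per arm do so. LV differed from SM in kit and RNA input as well as in tissue. The p-values measure the spread between libraries, in which differences between these rats, preparation and counting are joined. In the comparisons of MT or LV with SM and in their interactions, both libraries of a rat entered the main fits as separate units.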
